A study of Mus musculus with 3 samples.

Results

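S100a4-positive memory-like CD4 T cells were 77 of the 12792 barcodes kept from peripheral blood (PB) of leukemia-free mice and of mice engrafted with SCLL, a leukemia and lymphoma syndrome driven by FGFR1 fusions. They were selected on measured values: unique molecular identifiers (UMIs, each standing for 1 captured transcript) of marker genes in each barcode. A barcode needed 200 genes or more, no more than 10% of UMIs from mitochondrial genes, at least 2 UMIs of Cd3d, Cd3e and Cd3g together, at least 1 of Cd4 and at least 2 of S100a4, no UMI of Cd8a, Cd8b1, Foxp3 or Cd79a, and at most 1 of the monocyte genes F13a1 and Fn1 together. This gate held 28 naive, 36 D11 and 13 D14 cells. The mice were wild-type BALB/c, and the study's methods describe its engrafted mice as young adult females. Naive mice carried no leukemia, and the leukemic samples were taken at day 11 (D11) or day 14 (D14) from mice engrafted with BBC2, a single line of pro-B-like leukemia cells made with the BCR-FGFR1 fusion kinase. Each condition had 1 scRNA-Seq library, and how many mice a library holds is not given in the sources used here, so no difference between conditions could be tested and every interval below covers counting error only. Red cells had been lysed and dead cells removed before the 3′ libraries were made.

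CD4 T cells recognise peptides on MHC class II and direct other immune cells. Naive cells recirculate through lymph nodes by means of homing receptors such as Ccr7, under the transcription factors Lef1, Tcf7 and Klf2. Antigen-experienced cells lose much of this program and gain adhesion molecules, tissue chemokine receptors and cytoskeletal and calcium-binding proteins, among them S100a4, an S100 family protein that binds non-muscle myosin and is widely used as a transcript of memory T cells. S100a4 (ENSMUSG00000001020) lies on the plus strand at chr3:90603771-90606045 of GRCm38.

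Sums over the gated cells held 335270 (naive), 316307 (D11) and 120508 (D14) UMIs. Median UMIs per gated cell were 11979, 7991 and 10686 in that order, and median genes 3534, 2768 and 3029, so that 1 UMI equals 2.98, 3.16 and 8.30 CPM (counts per 1000000 UMIs) of the sums. The comparison group was the other CD4 T cells, which met every other term of the gate and had 0 or 1 S100a4 UMI: 626 naive, 74 D11 and 20 D14 cells, with medians of 9165.5, 6331 and 7310 UMIs. The libraries shared 12 barcodes between naive and D11, 14 between naive and D14 and 18 between D11 and D14, and none of these was a gated cell. T cell genes were checked in the gated cells. Cd3e, itself part of the gate, was found in 28 of 28, 34 of 36 and 12 of 13 cells, all 19 genes of a list for the T cell receptor complex and its proximal signalling were detected in each library. Of these, Cd3d, Cd3e and Cd3g had chosen the cells and support nothing, whereas Trac was at 486, 427 and 373 CPM and Lck, the kinase next to the receptor, at 325, 272 and 373 CPM. The list, gate genes included, summed to 10866, 10901 and 9559.5 CPM against 11744, 10964 and 10872 CPM in the other CD4 T cells.

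S100a4 chose the cells, so its levels here only describe the gate. In the naive library the gated cells held 2 to 55 S100a4 UMIs with a median of 12, at D11 2 to 85 with a median of 11.5, and at D14 2 to 35 with a median of 7. Only 3 naive, 1 D11 and 1 D14 cell sat on the threshold of 2 UMIs, and 13, 3 and 2 CD4 T cells fell just outside it with 1 UMI, while 613, 71 and 18 had none. At least 5 UMIs were found in 22, 32 and 10 cells, and 3 to 4 UMIs in 3, 3 and 2. In naive PB the cells between 0 and 5 UMIs were thus nearly as many as those with 5 or more. Summed S100a4 was 1300.4 CPM (95% Poisson interval 1181 to 1428) in naive, 2052 (1897 to 2216) at D11 and 1494 (1283 to 1729) at D14.

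**Figure D1:**
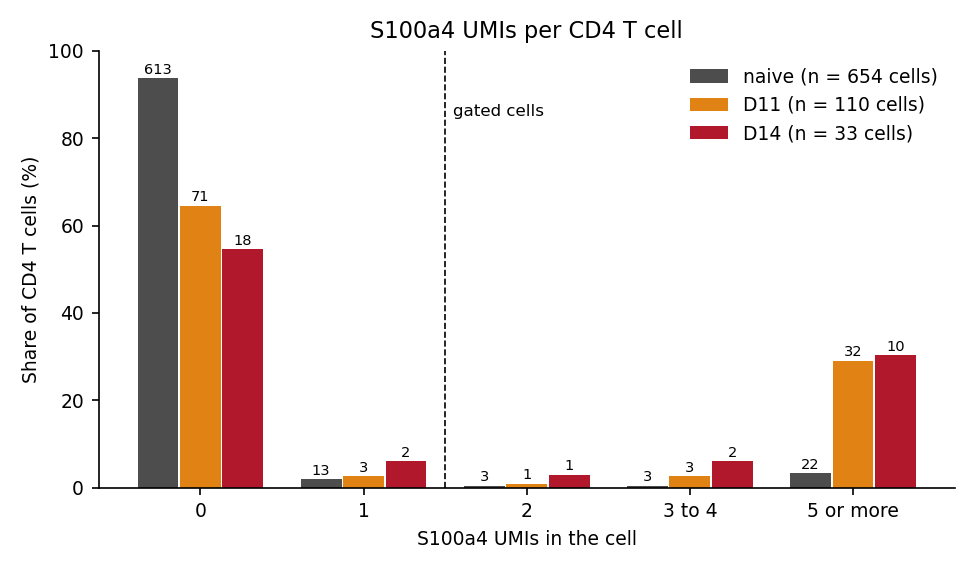
Share of CD4 T cells in percent (y axis) by the number of S100a4 UMIs in the cell (x axis), for the naive, D11 and D14 libraries; numbers over the bars are cells and the dashed line is the threshold of the gate. Most cells lie at 0 or at 5 or more UMIs, and the bar at 5 or more is higher at D11 and D14 than in naive.

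Cells on either side of the threshold differed in other genes. Pooled over the libraries, the 18 cells with 1 S100a4 UMI had 865 CPM of Itgb1, the beta 1 integrin, between the 139 CPM of cells without S100a4 and the 1539.7 CPM of cells with 5 or more, and this order held in each library. Lef1 in cells at 1 UMI lay between those levels in naive PB alone, at 1157 CPM beside 2049 and 606 CPM. At D11 it was at 1826 CPM both in these cells and in cells without S100a4, beside 262 CPM in cells with 5 or more. At D14 it was at 74.4 CPM, from 1 UMI, below the 2307 and 324 CPM of the other classes. At 2 UMIs the 3 naive cells had 1676 CPM of Itgb1 and 978 CPM of Lef1. The D11 cell had 95.5 CPM of Itgb1, from 1 UMI and below D11 cells without S100a4, and 573 CPM of Lef1, and the D14 cell 2113 and 176 CPM. The cells at 1 UMI also held 87 UMIs of the myeloid gene Lyz2, all in the naive library.

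The gated cells made up a larger share of CD4 T cells in leukemic PB, while the other CD4 T cells were a smaller share of all barcodes. In naive PB 28 of 654 CD4 T cells were gated, or 4.28% (Clopper-Pearson 95% interval 2.86% to 6.13%). At D11 36 of 110 were, or 32.7% (24.1% to 42.3%), and at D14 13 of 33, or 39.4% (22.9% to 57.9%). The ratios over naive were 7.64 (4.86 to 11.9) and 9.20 (5.14 to 15.5). They were 11.9 and 18.2 when cells with a UMI of Ikzf2, a transcription factor described below, were left out of all CD4 T cells, which took out 15 of the 28 naive gated cells. As a share of all kept barcodes, however, gated cells were at 0.735% in naive, 0.788% at D11 and 0.295% at D14, ratios of 1.07 (0.659 to 1.75) and 0.401 (0.210 to 0.764). The D14 direction therefore depended on the denominator. Over the same barcodes the other CD4 T cells were at 16.4% in naive, 1.62% at D11 and 0.453% at D14, ratios of 0.0986 (0.0778 to 0.125) and 0.0276 (0.0178 to 0.0428). All kept barcodes include leukemia, myeloid and red cells, whose numbers differ between the libraries, so that a share of them is not a cell number per volume of blood.

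S100a4 was also found in other T cells. At least 2 S100a4 UMIs were found in 4.64% of CD8 T cells in naive PB (9 of 194), 30.0% at D11 (12 of 40) and 38.7% at D14 (12 of 31). Among Foxp3-positive CD4 cells, the regulatory T cells left out of the gate, the shares were 57.1% (36 of 63), 73.9% (17 of 23) and 78.6% (11 of 14), with intervals that overlap. B cells were taken as a rough guide to what free RNA and mixed barcodes can give. That they hold little S100a4 of their own was assumed and not tested. They had 0.882% (3 of 340), 1.65% (4 of 242) and 7.41% (4 of 54) at medians of 6310.5, 5832 and 8455.5 UMIs. After cells were thinned to 2000 UMIs, with 4 naive CD4 T cells and 3, 11 and 2 B cells too shallow and left out, the CD4 shares were 2.92%, 27.3% and 27.3% and the B cell shares 0.297%, 0% (0 of 231, which allows up to 1.30%) and 3.85%. The thinned CD8 shares were 2.58%, 20.5% and 22.6%, with 1 D11 cell left out, and those of Foxp3-positive cells 38.1%, 65.2% and 42.9%. Differences between the libraries were not tested. The CD4 share was above the B cell share of its own library in each case, and the naive CD4 share was below both leukemic ones.

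**Figure D2:**
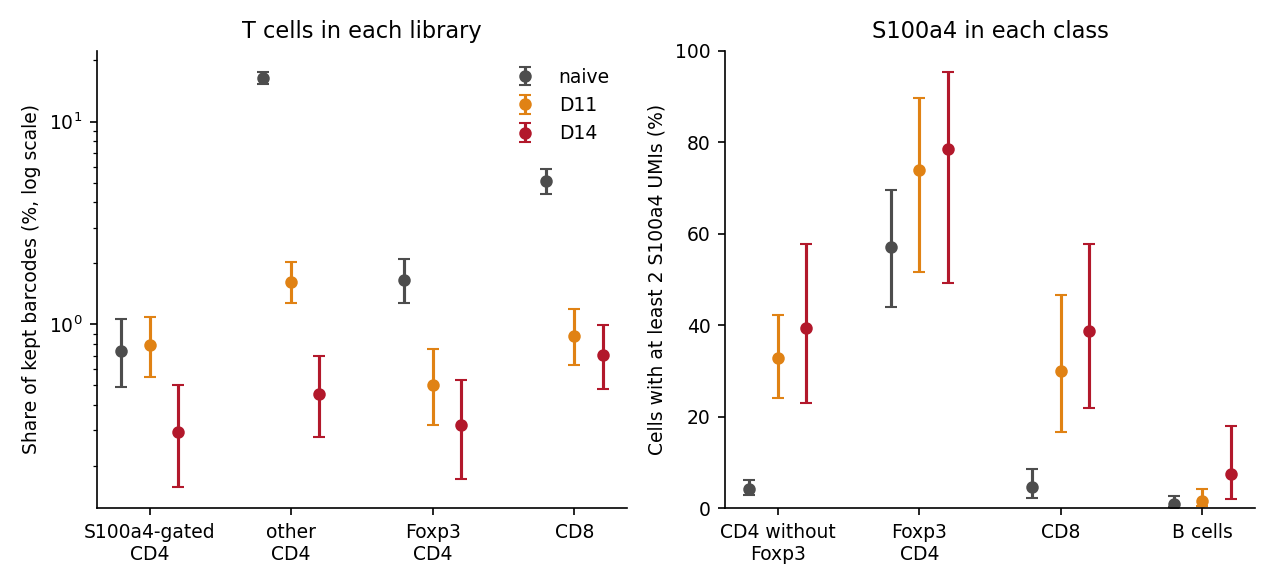
Left, share of kept barcodes in percent on a log axis for gated CD4, other CD4, Foxp3-positive CD4 and CD8 T cells; right, percent of CD4 T cells without Foxp3, Foxp3-positive CD4 T cells, CD8 T cells and B cells with at least 2 S100a4 UMIs. Points are single libraries and bars are 95% Clopper-Pearson intervals; gated cells stand at 0.735%, 0.788% and 0.295% of barcodes while the other CD4 T cells stand at 16.4%, 1.62% and 0.453%.

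What the gated cells shared beyond S100a4 was read from a comparison with the other CD4 T cells of the same library, for genes that reached 200 CPM in either sum and had a UMI in 20% or more of the cells that made up the higher one. Genes of the gate and ribosomal protein, mitochondrial and hemoglobin genes were left out. Log2 ratios were taken with 50 CPM added, so that differences in low genes are understated. In naive PB 933 genes were compared, of which 61 (6.54%) were at least 2-fold higher and 41 (4.39%) at least 2-fold lower in gated cells. At D11 925 genes were compared, with 98 (10.6%) higher and 52 (5.62%) lower. With TMM factors the split turned to 45 higher and 60 lower in naive and 66 and 85 at D11, and the median of all genes compared moved from 0.05 to -0.19 and from 0.11 to -0.15 on the log2 scale. Of 814 genes compared in both libraries, 56 were higher in naive and 73 at D11, with 48 in common (85.7% and 65.8% of each), and 36 and 49 were lower, with 27 in common (75.0% and 55.1%).

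Genes of antigen experience led the higher side. S100a6, a calcium-binding S100 protein, was at 904 CPM in gated and 39.8 CPM in other CD4 T cells of naive PB, at 1189 and 94.8 CPM at D11, and at 1336 and 110 CPM at D14. Lgals1, a secreted galectin, was at 1190.1 against 81.8 CPM, 1337 against 70.6 CPM and 747 against 48.2 CPM. Crip1, a small LIM-domain protein, was at 1214 against 103 CPM, 1631 against 131 CPM and 1602 against 68.9 CPM. In all 3 libraries the gated level of these genes stood far above that of the other cells. Itgb1 was the broadest, with a UMI in all 77 gated cells, at 1515 against 137 CPM in naive, 1461 against 355 CPM at D11 and 1734 against 358 CPM at D14, so that its ratio within a library was 11.1 (9.88 to 12.4) in naive and 4.11 (3.45 to 4.92) at D11. Rora, a nuclear receptor of helper and innate-like lymphocytes, was found in 27 of 28, 36 of 36 and 13 of 13 gated cells, at 978, 895 and 1012 CPM. Ahnak, a large scaffold protein, S100a10, the partner of annexin A2, and Ikzf2 (Helios), a transcription factor best known from regulatory T cells, completed the 8 largest ratios in naive PB. At D11 the 8 largest also included Myo1f, a class I myosin, St6galnac3, a sialyltransferase, and Ccr2, the receptor for Ccl2.

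Of the 33 genes of a memory and effector list, 20 could be compared in naive PB and 15 of these were at least 2-fold higher and 0 lower in gated cells, beside 6.54% higher over all genes, with a median log2 ratio of 1.83 against 0.05. At D11 18 of 21 were higher and 1 lower, beside 10.6% higher and 5.62% lower over all genes, with a median of 2.02 against 0.11. Some members reached 200 CPM only in gated cells, as S100a6 did in naive PB at 904 against 39.8 CPM. The filter thus favored higher members, and these counts describe the list and test nothing. The list, which holds S100a4 itself, summed to 17407 CPM in naive gated cells, 20098 at D11 and 18273 at D14, against 4137, 4301 and 3615 CPM in the other CD4 T cells. Cd44, the hyaluronan receptor used to mark antigen-experienced T cells, was at 307, 411 and 349 CPM against 67.6, 123 and 103 CPM. The lower gene at D11 was Itga4. Il18r1, a subunit of the interleukin 18 receptor, was at 594, 531 and 747 CPM in gated cells.

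Genes of naive cells and lymph node homing stood on the lower side. Lef1 was at 641 CPM in gated and 2027 CPM in other CD4 T cells of naive PB, at 272 and 1826 CPM at D11 and at 448 and 2100.1 CPM at D14. Satb1, a chromatin organiser of naive T cells, was at 450.4 against 2075 CPM, 237 against 1818 CPM and 216 against 2789 CPM. Bach2, a repressor that holds back effector differentiation, was at 310.2 against 1757 CPM, 322 against 1985 CPM and 614 against 2506 CPM. All 3 were lower in gated cells of every library. Igfbp4, a secreted binding protein of insulin-like growth factors, had 3 UMIs in naive gated cells and none at D11 or D14, where a count of 0 allows up to 9.48 and 24.9 CPM, against 355, 226 and 213 CPM in the other CD4 T cells. Actn1, an actin crosslinker, Stt3b of the oligosaccharyltransferase, St8sia1, a ganglioside sialyltransferase, and Rapgef4, an exchange factor driven by cyclic AMP, were also among the 8 lowest in naive PB, as was S100a9, a neutrophil transcript described below. Of 18 list genes, 14 were compared in naive PB with 0 higher and 8 lower (median -1.34), beside 4.39% lower and a median of 0.05 over all genes. At D11 13 were compared with 0 higher and 8 lower (median -2.01), beside 5.62% lower and a median of 0.11. Igfbp4 reached 200 CPM only in the other CD4 T cells, so these counts were also shaped by the filter and test nothing. The direction of the counts of both lists was the same with TMM factors and with the mean of per-cell CPM. It was also the same with ribosomal, mitochondrial and hemoglobin genes left out of the CPM totals.

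**Figure D3:**
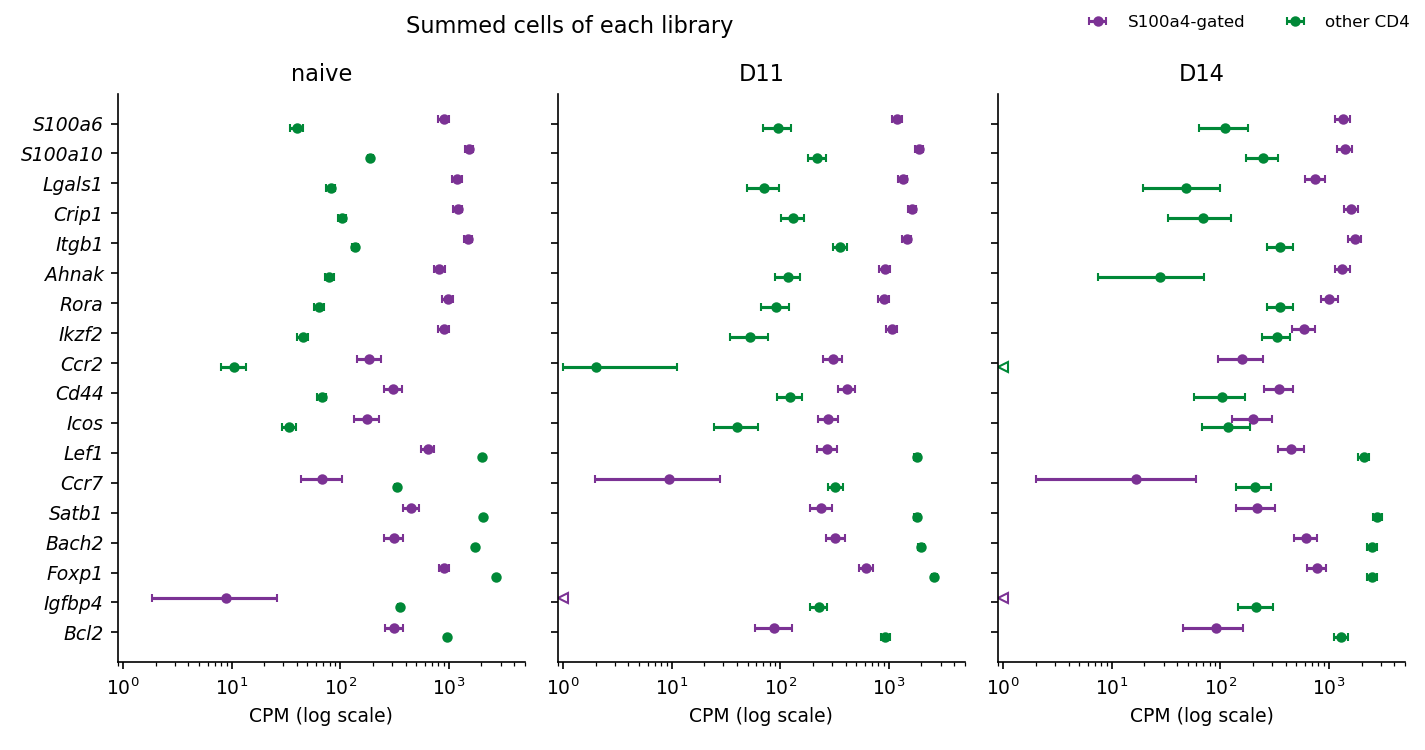
CPM of named genes on a log axis (x) in the summed gated cells and other CD4 T cells of the naive, D11 and D14 libraries; bars are 95% Poisson intervals and open triangles at the left edge are genes with 0 UMIs. The memory genes at the top stand to the right in gated cells and the naive genes at the bottom to the left in all 3 libraries.

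Between naive and D11 the gated cells differed in few genes of those compared. Of 911 genes, 10 (1.1%) were at least 2-fold higher and 5 (0.549%) at least 2-fold lower at D11. The 8 largest ratios were those of S100a9, S100a8, Itgae, Klf12, Tsc22d3, Stat4, Gm15987 and Nr3c1, and the 5 lower genes were Bcl2, Adamts6, Itga4, Lef1 and Fbxw7. With 13 cells, D14 was under the minimum of 20 cells for such a comparison, and its values are given beside the others without a count of genes. In the same comparison of the other CD4 T cells, 3 of 778 genes were higher and 0 lower at D11.

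Itgae, the alpha E integrin (CD103) that pairs with Itgb7 to bind E-cadherin, was found in 18 of the 36 D11 cells, in 4 of 28 naive and in 2 of 13 D14 cells. Its level was 17.9 CPM (6.57 to 39.0) in naive, 234 (184 to 294) at D11 and 99.6 (51.5 to 174) at D14, a ratio of 13.1 (5.73 to 36.8) at D11. The D11 level was above the naive interval, and no D11 cell held more than 16 of the 74 UMIs. In the other CD4 T cells Itgae was at 5.32, 14.1 and 0 CPM. Foxp3-positive cells with at least 2 S100a4 UMIs held 177, 417 and 417 CPM. At D11 gated cells with Ikzf2, a gene described below, held 383 CPM of Itgae against 139 CPM in those without. In naive PB there was no such difference, at 16.4 CPM with and 19.7 CPM without Ikzf2, from 3 UMIs each. At D14 the levels were 261 CPM in 2 cells with and 53.4 CPM in 11 cells without. Itgb7 was at 406, 531 and 382 CPM in gated cells.

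Nr3c1, the glucocorticoid receptor, had 221 CPM (173 to 277) in naive gated cells, 528 (451 to 614) at D11 and 813 (660.2 to 991) at D14. It was found in 17 of 28, 35 of 36 and 13 of 13 cells. Tsc22d3, the glucocorticoid-induced leucine zipper GILZ, was at 95.4 (65.3 to 135), 326 (266 to 395) and 373 (272 to 500) CPM, in 17, 31 and 12 cells. For both genes the D11 and D14 intervals lay above the naive one. These intervals do not cover spread between cells, and 3 of the 13 D14 cells held 51.0% of the Nr3c1 UMIs. For Tsc22d3 the top 3 D14 cells held 57.8%. In the other CD4 T cells the levels were 272, 325 and 509.5 CPM for Nr3c1 and 212, 293 and 386 CPM for Tsc22d3. Klf12, a Krueppel-like repressor, was at 113, 433 and 290 CPM in gated cells, with a ratio of 3.82 (2.65 to 5.63) at D11, and at 9.78, 22.2 and 41.3 CPM in the others. Stat4, which relays interleukin 12, was at 104, 304 and 266 CPM, with a ratio of 2.91 (1.96 to 4.41) at D11, and at 215, 248 and 372 CPM in the others, above the gated level in naive and at D14. Gm15987 was at 101, 285 and 166 CPM in gated and 10.6, 8.07 and 0 CPM in other CD4 T cells.

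Bcl2, the survival factor, was at 313 CPM (256 to 379) in naive, 88.5 (58.8 to 128) at D11 and 91.3 (45.6 to 163) at D14, while the other CD4 T cells held 963, 928 and 1288 CPM. Few gated cells carried it: 7 of 28, 10 of 36 and 3 of 13. In naive PB 3 of these cells held 81.0% of the 105 UMIs, and 1 of them 51 UMIs. With the highest-scoring doublets removed, which took out 3 naive gated cells and 1 at D11, the log2 ratio at D11 was -0.47 in place of -1.39. Itga4, the alpha 4 integrin that pairs with Itgb1 or Itgb7, was at 611, 243 and 33.2 CPM, in 12, 9 and 1 cells, and 3 cells held 71.7% of its naive and 72.7% of its D11 UMIs. Its level in the other CD4 T cells was 666, 613 and 434 CPM. Lef1, already low in gated cells, was at 641 CPM in naive and 272 CPM at D11, in 25 of 28 and 24 of 36 cells. With doublets removed its log2 ratio was -0.71 in place of -1.10, and it passed 2-fold in 10 of 14 alternatives. Fbxw7, a subunit of a ubiquitin ligase, was at 239, 91.7 and 124 CPM and also passed in 10 of 14, with a log2 ratio between -1.29 and -0.81. Adamts6, a metalloproteinase, was at 614, 237 and 573 CPM, but 1 D14 cell held 56 of the 69 UMIs there, and D14 was at 119 CPM without that cell.

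**Figure D4:**
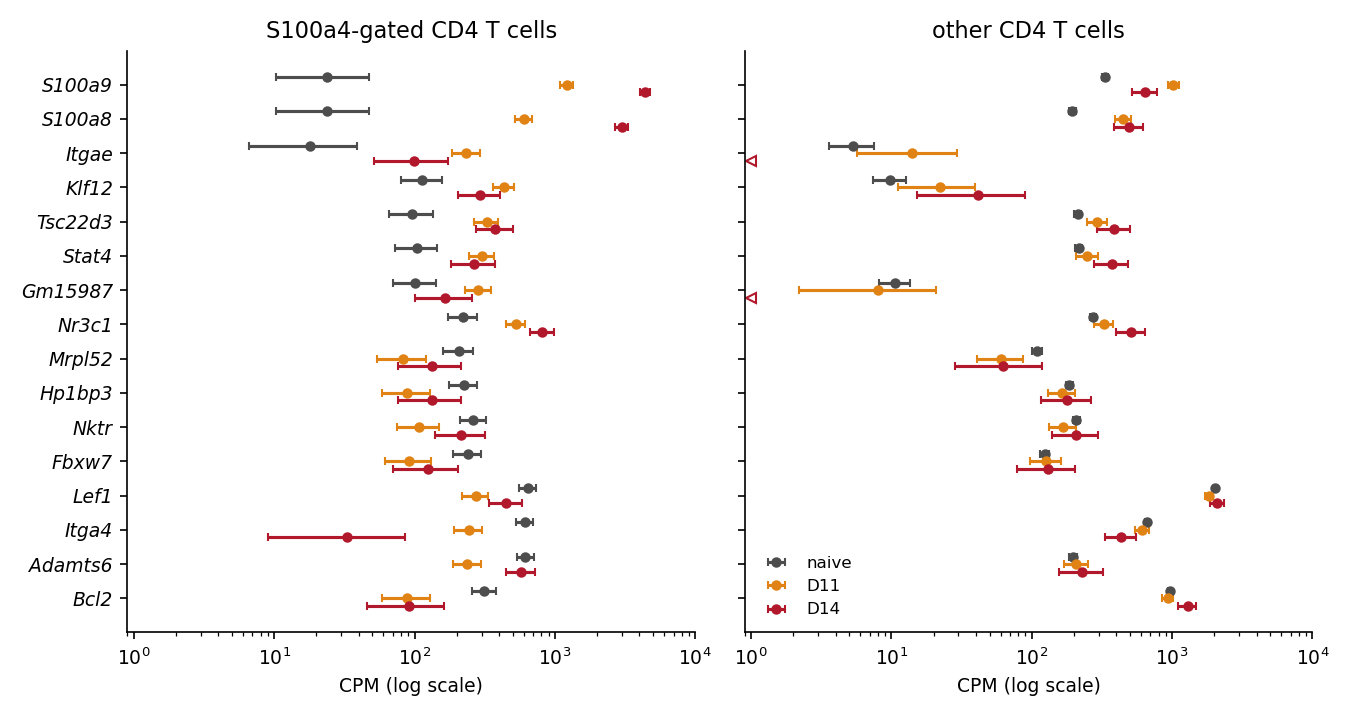
CPM on a log axis (x) of the 8 genes with the highest and the 8 with the lowest ratio of D11 over naive in gated cells, shown for gated (left) and other CD4 T cells (right) of each library with 95% Poisson intervals; open triangles are genes with 0 UMIs. Itgae, Klf12, Tsc22d3, Stat4 and Nr3c1 are higher at D11 than in naive gated cells with intervals that do not overlap, and the S100a9 and S100a8 values come mostly from 1 cell each at D11 and D14. The intervals do not cover spread between cells.

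S100a8 and S100a9, the calprotectin subunits of neutrophils, had the largest ratios, carried mostly by single cells. A UMI of S100a9 was found in 6 of 28, 19 of 36 and 9 of 13 gated cells. S100a8 and S100a9 summed to 16 UMIs in naive, 572 at D11 and 889 at D14 gated cells, and 1 D11 cell held 535 and 1 D14 cell 870.0 of them. With such cells left out (at least 10 UMIs of S100a8 and S100a9, or of Lyz2), the log2 ratio of S100a9 at D11 was 0.80 in place of 4.09, and 6 genes in place of 10 were at least 2-fold higher. Of the 16 genes of the neutrophil list 6, 15 and 16 were detected, and their sum was 68.6, 2207 and 8921 CPM, with S100a9 the most abundant at D11 and D14 and S100a8 and S100a9 level at 8 UMIs each in naive. In the other CD4 T cells this list summed to 654, 1705 and 1804 CPM, so it was also higher there in both leukemic libraries. Hemoglobin genes gave 0.0176%, 4.55% and 2.16% of the gated sums, against 0.229%, 9.97% and 2.02% in the other CD4 T cells, and 1 cell held 7775 of 14394 hemoglobin UMIs at D11 and 1 held 2537 of 2608 at D14. The red cell list summed to 227, 45756 and 21749.6 CPM with Hbb-bs the most abundant. With cells over 1% hemoglobin left out, the gated cells were 28 of 646, 33 of 98 and 12 of 31 CD4 T cells.

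Transcripts of further cell types were also counted in the gated cells. Of 24 monocyte list genes 21, 15 and 14 were detected at a sum of 1023, 901 and 813 CPM, of which Ccr2, also a T cell gene, was the most abundant at 185, 307 and 158 CPM; Vcan was at 0 in all 3 libraries, as was F13a1, which the gate itself limits, and Csf1r had 9, 0 and 1 UMIs. Lyz2 had 35, 1 and 14 UMIs, of which 1 naive cell held 33. Of the B cell list Cd79a, a gate gene, Ms4a1, Ighd, H2-Aa and Ly6d were at 0 in every library and the list summed to 101, 168 and 216 CPM, led by Igkc in naive and Ighm at D11 and D14. Of the pro-B leukemia list 5, 7 and 6 genes of 15 were detected at 140, 174 and 166 CPM, led by the cell cycle genes Mki67 and Top2a, with Igll1, Dntt, Rag1 and Rag2 at 0. The natural killer list summed to 456, 534 and 282 CPM, led by Gzma in naive and Nkg7 at D11, with Gzma, Nkg7 and Tyrobp level at 9 UMIs each at D14, and the platelet list to 2.98, 6.32 and 41.5 CPM. The part of such RNA in the differences between libraries was tested only as far as the values without those cells show.

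Among themselves the gated cells were mixed. A UMI of Ikzf2 was present in 15 naive gated cells, 13 D11 cells and 2 D14 cells, and in 36 of 626, 7 of 74 and 3 of 20 other CD4 T cells. Over all gated cells Ikzf2 was at 901, 1059 and 589 CPM. In gated cells that carried it the level was 1650.1 CPM in naive, 2729.7 CPM at D11 and 2649 CPM at D14. Foxp3-positive cells with at least 2 S100a4 UMIs (36, 17 and 11 cells) held 3108, 2717 and 4732 CPM. These were not chosen for Ikzf2, which 33, 17 and 9 of them carried, so the 2 sets of levels are not alike in selection. Ctla4, an inhibitory receptor of regulatory and activated T cells, was at 644 CPM in D11 gated cells with Ikzf2 and 20.7 CPM in those without, and 11 of the 13 cells with Ctla4 also had Ikzf2. In naive PB the levels were 169 and 52.5 CPM and 9 of 11 Ctla4 cells had Ikzf2, while at D14 1 of 3 did. Il2ra, the alpha chain of the interleukin 2 receptor, was at 10.9 and 73.3 CPM in gated cells with Ikzf2 and 0 in those without, against 101 and 141 CPM in Foxp3-positive cells. Nrp1, a semaphorin receptor, was at 295 and 367 CPM with Ikzf2 and 13.1 and 25.8 CPM without, and at D14 at 261 CPM in the 2 cells with Ikzf2 and 128 CPM in the 11 without. Foxp3 was detected by few UMIs: 10 of 36 naive and 6 of 17 D11 Foxp3-positive cells with S100a4 had a single Foxp3 UMI, at medians of 3 and 2. Whether some gated cells are regulatory T cells whose Foxp3 was not captured was not tested. With cells holding Ikzf2 left out of both gated and other CD4 T cells, the gated share was 2.16% in naive (13 of 603), 25.6% at D11 (23 of 90) and 39.3% at D14 (11 of 28).

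Helper subset genes differed in how many gated cells held them. Gata3, the factor of type 2 helper cells that other T cells also hold, was found in 24 of 28, 26 of 36 and 6 of 13 gated cells, at 203, 218 and 74.7 CPM, and in 307 of 626, 20 of 74 and 7 of 20 others. After thinning to 2000 UMIs it was found in 11, 5 and 1 gated cells and in 98 of 622, 8 of 74 and 1 of 20 others. Tbx21, the factor of type 1 helper cells, was found in 7, 7 and 6 cells, and Cxcr3, the receptor for interferon-induced chemokines, in 7, 11 and 3. At least 1 of Tbx21, Cxcr3, Ifng and Ccl5 was found in 11, 15 and 7 gated cells against 33 of 626, 5 of 74 and 1 of 20 other CD4 T cells. After thinning this held for 8 of 28, 5 of 36 and 6 of 13 gated cells against 10 of 622, 0 of 74 and 0 of 20 others. Tbx21 was then found in 0, 1 and 4 gated cells and Cxcr3 in 5, 3 and 2. Counts without thinning depend on depth and do not compare the libraries on equal terms. Ccl5, a chemokine of cytotoxic and type 1 cells, was found in 4, 4 and 3 gated cells at 692, 228 and 863 CPM, and 3 of the cells held 99.6% of its naive and 98.6% of its D11 UMIs, so its ratio at D11 rests on single cells. Cxcr5 or Bcl6 of follicular helper cells were found in 4, 3 and 4 gated cells and in 128 of 626, 17 of 74 and 8 of 20 others. The innate-like genes Zbtb16, Klrb1c and Trdc were found in 5, 5 and 0 gated cells and in 40, 2 and 1 others. Icos, a costimulatory receptor, was found in 21, 28 and 6 cells, and Pdcd1 (PD-1) in 4, 2 and 2.

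Chemokine receptor genes were compared with the other CD4 T cells. Ccr7 was found in 11 of 28, 3 of 36 and 2 of 13 gated cells, against 561 of 626, 52 of 74 and 13 of 20 other CD4 T cells. After thinning to 2000 UMIs it was found in 5 of 28, 0 of 36 (which allows a share of up to 8.33%) and 1 of 13 gated cells, against 295 of 622, 34 of 74 and 4 of 20. Ccr2 was found in 15, 22 and 6 gated cells and in 15 of 626, 1 of 74 and 0 of 20 other CD4 T cells. Cxcr4, the receptor for Cxcl12, was found in 8, 22 and 4 gated cells, at 23.9, 136 and 41.5 CPM. Among other CD4 T cells it was found in 232 of 626, 30 of 74 and 3 of 20, so that in naive PB it was no more frequent in gated cells. In gated cells its log2 ratio of D11 over naive was 1.33, at levels under the 200 CPM needed for the count of genes.

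**Figure D5:**
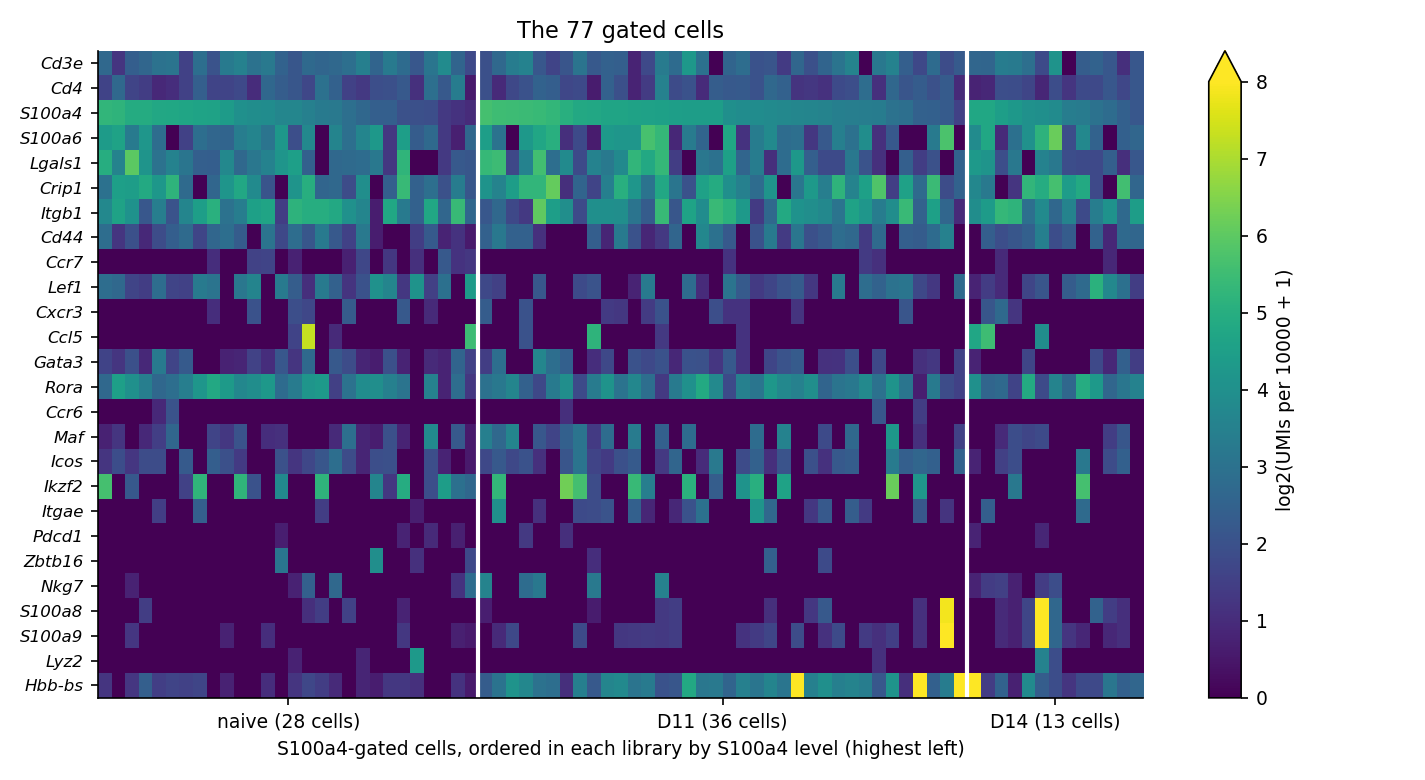
Level of selected genes (rows) as log2(UMIs per 10000 + 1) in each of the 77 gated cells (columns), ordered within each library by S100a4 with the highest on the left; levels above 8 share the top colour. Itgb1 and Rora are present in nearly all cells, Ikzf2, Ccl5, Cxcr3 and Itgae in some, and S100a8 and S100a9 are high in 1 D11 and 1 D14 cell.

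The remaining lists held few genes high enough to compare, and their counts stand beside 1.1% higher, 0.549% lower and a median log2 ratio of -0.04 over all 911 genes. Of 28 immediate early genes, 8 were compared between D11 and naive, of which 1, the AP-1 subunit gene Junb, was at least 2-fold higher and 0 lower (list median 0.50), and the list summed to 3308, 5204 and 5119.99 CPM in gated cells against 4017, 3938 and 4503 CPM in the others. Its members Zfp36, which speeds mRNA decay, and Ier5 were at 29.8, 117 and 91.3 CPM and at 44.7, 161 and 133 CPM. Of 36 interferon-stimulated genes, 8 were compared and none passed 2-fold, with a sum of 7794, 6952 and 4672 CPM against 4422, 4285 and 4386 CPM in the others; Ifi27l2a was at 1745, 1318 and 564 CPM and Isg15, a ubiquitin-like modifier, at 95.4, 28.5 and 8.30 CPM. Of 17 heat shock genes, 5 were compared and none passed (list median 0.30). Hspa1a, Hspa1b and Hsph1 were too low in naive and at D11 to be compared. Hspa1b, an inducible Hsp70 gene, had 1, 9 and 25 UMIs, or 2.98, 28.5 and 207 CPM, in 1, 5 and 6 gated cells, and D14 was at 147 CPM without the cell that held the most. Its near-identical copy Hspa1a had 0, 2 and 6 UMIs, and reads of the pair may be split between them. Hsph1, a co-chaperone of Hsp70, was at 32.8, 63.2 and 124 CPM. In the other CD4 T cells Hspa1b was at 1.89, 6.05 and 13.8 CPM and Hsph1 at 51.3, 98.8 and 34.4 CPM. Of 15 glycolysis genes 2 were compared and none passed, with Gapdh at 480.2, 439 and 299 CPM against 190, 147 and 138 CPM in the others. Of 15 receptor and checkpoint genes in the list for exhaustion, 2 were compared and none passed, with Tox at 805, 743 and 216 CPM. Of 13 regulatory genes, 3 were compared and Itgae passed. It met the 200 CPM minimum only at D11, at 234 CPM against 17.9 CPM in naive, and 3 genes do not describe the list.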

How the data were processed

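PB leukocytes were profiled in 3 libraries, 1 per condition. The authors deposited filtered Cell Ranger matrices of raw, unnormalized UMI counts. The matrix headers name version 5.0.1 and the submitters' notes version 7.1.0, on mm10. The gate was applied to the deposited counts, and the libraries held 30362408 UMIs (naive), 57640396 (D11) and 65861863 (D14), with hemoglobin at 11.2%, 55.9% and 22.5%. Barcodes kept were 3811, 4567 and 4414. UMIs were summed over the gated cells of a library and given as CPM with Poisson intervals. Gene ratios have conditional binomial intervals, shares Clopper-Pearson intervals and their ratios score intervals, all at 95% (scipy 1.17.1, statsmodels 0.14.6). A count of 0 allows up to 3 counts. With 1 library per group there was no test or p-value. Doublets were kept, and their removal with Scrublet (scanpy 1.11.5) and TMM factors (edgeR 4.0.16) were alternatives. The comparison code was tested on simulated data.

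Named genes were the gate genes, the 8 highest and 8 lowest ratios of each comparison, and from each of 29 lists the 3 most abundant and the 2 with the largest ratio at 50 CPM or more. Other genes named (Junb, Trac, Lck, Hspa1a, Hspa1b, Hsph1, Il2ra, the helper subset genes, Pdcd1 and the markers of other cell types given at or near 0) were chosen from the lists after their values were seen. Of 450 list genes, 5 were not found by symbol. The members and the lists were chosen with earlier results of these data known. Positions are from GENCODE vM21 (GRCm38).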

Additional observations from a re-analysis of the deposited data

How the results depend on the processing

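With the gate changed in 10 ways and cells with RNA of other types left out, each share of CD4 T cells stayed inside its counting interval except in naive PB with S100a4 at 1 UMI or more (6.27%). In alternatives chosen after seeing the data, like that on RNA of other types, leaving out Ikzf2 cells of the gate alone gave 2.03% in naive, 23.7% at D11 and a D14 ratio of 17.4, and leaving them out of all CD4 T cells 2.16% in naive and ratios of 11.9 at D11 and 18.2 at D14. Both of these leave cells out on 1 Ikzf2 UMI and so depend on depth, whose part was not tested. Over all kept barcodes the shares were 0.735%, 0.788% and 0.295% (ratios 1.07 and 0.401, the latter turned in direction). Over kept barcodes with under 10% hemoglobin they were 0.753%, 1.07% and 0.371%. The ratios there were 1.42 (0.865 to 2.33) and 0.493 (0.254 to 0.955), the latter turned. Over all Cd3 cells the shares were 2.06%, 6.20% and 3.85%. Their ratios were 3.01 (1.86 to 4.86) at D11 and 1.87 (0.986 to 3.52) at D14, so that the D14 interval includes 1. The number of genes higher at D11 than in naive was 6 with doublets removed and 6 without cells carrying RNA of other types. It was 17 with ribosomal, mitochondrial and hemoglobin genes also left out of the CPM totals, and 23 at a minimum of 100 CPM. The number lower was 9 with S100a4 at 1 UMI or more and 8 with those genes left out of the totals. It was 11 with 10 CPM added and 9 at 100 CPM. For gated over other CD4 T cells, also tried after seeing the data, the naive counts that moved by over 1.5 times were 20 lower with S100a4 at 1 UMI or more and 94 higher at 100 CPM. With TMM factors the naive split of 45 higher and 60 lower turned in majority, within 1.5 times each. At D11 the counts that moved were 85 lower with TMM factors and 87 lower with ribosomal, mitochondrial and hemoglobin genes out of the CPM totals. At 100 CPM they were 156 higher and 80 lower. A minimum of 100 CPM admits more genes, and so did the smaller CPM totals. Between D11 and naive 2057 and 1225 genes were compared in these settings, in place of 911. For the other counts that moved the cause was not tested, apart from the S100a8 and S100a9 cells.

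Of 25 named genes past 2-fold between D11 and naive, Il1b turned in direction, to a log2 ratio of -0.014 with doublets removed from 1.53. Itgae (1.74 to 3.13), Klf12, Tsc22d3, Stat4, Nr3c1, Itga4 and Cxcr4 (1.18 to 2.11) passed 2-fold in the same direction under all 14 alternatives. The hemoglobin genes Hba-a1, Hba-a2 and Hbb-bs did so too. Thinning the cells before the gate left 9, 15 and 5 gated cells, too few to compare genes, as did leaving out Ikzf2 cells for D11 over naive. Comparisons at D14 were not run with 13 cells. No paired analysis was possible because each group has 1 library. Counts of 28, 36 and 13 cells limit every statement, and mice, libraries and conditions cannot be told apart.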
